A study of Drosophila melanogaster with 2 samples.

Results

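The 36 muscle genes described here encode sarcomere proteins, muscle regulators and the proteins of myoblast fusion, and were taken by name from a list of genes known for these roles. They are 36 of the 13945 protein-coding genes annotated on the 6 arms 2L, 2R, 3L, 3R, 4 and X. Each was examined for peaks of schlank, the ceramide synthase of Drosophila melanogaster, which makes the backbone of sphingolipids and bears a homeodomain. Unc-89 is listed as Obsc in the annotation (FBgn0053519) and the other 35 names matched a symbol. A summit, the position of a peak's maximum, was assigned to a gene when it lay within 500 bp of a transcription start site (TSS) of any of its transcripts or inside the gene span. The thresholded set of peaks placed 19 of its 2790 summits at 8 of the 36 genes, and the other 28 held none.

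Peaks came from ChIP-seq of whole embryos aged 0 to 24 h, of both sexes pooled, from 1 transgenic line that stably expresses schlank fused to GFP at its C terminus. Both samples are replicates of a single group, which leaves no contrast between conditions, and no test was made. The antibody field of both names schlank, while the free-text description calls them input controls, and they were taken as schlank ChIP from the antibody field. Chromatin was sonicated to 200 to 800 bp. The embryos were not sorted, so muscle is 1 of many tissues in each sample. A peak does not say in which cells it arose, and the promoter that drives the tagged protein is not given in the sources used here.

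Body wall muscles of the fly embryo form when founder cells, which carry the immunoglobulin receptors kirre and rst, fuse with fusion-competent myoblasts, which carry sns. The scaffold rols and the Rac activator mbc act inside the fusing cells. Mef2 then drives the genes of the sarcomere, in which myosin thick filaments slide along actin thin filaments anchored at Z discs. Thin filaments are switched on by calcium through troponin and tropomyosin.

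Sequences under 6 of the summits are printed as examples of sites inside fusion, anchorage and regulator genes. They were taken from the NCBI Release 6 assembly, whose coordinates are those of dm6, and each is 151 bp centred on the summit. The windows contain no annotated exon. Capitals mark matches to the E-box CANNTG (N is any base), to the homeodomain core TAATGA on either strand, and to the MEF2 site. The first 2 lie in introns of Msp300 with pooled signals of 496 and 205. The next 2 lie in introns of kirre, with signals of 418 and 188, and the last 2 in introns of how (173) and mbc (267). No marked sequence occurs in the first kirre window. The 6 windows do not follow signal, as kirre summits with signals of 260 and 241 are left out. They are also richer in marked sequences than the windows not shown. Windows of the same length at sls, at rols and at the kirre summits with signals of 241 and 190 hold none. Within 100 bp of all 19 summits, the MEF2 site and TAATGA matched at 3 each and the E-box at 10.
Msp300, chr2L:5108096-5108246, plus strand: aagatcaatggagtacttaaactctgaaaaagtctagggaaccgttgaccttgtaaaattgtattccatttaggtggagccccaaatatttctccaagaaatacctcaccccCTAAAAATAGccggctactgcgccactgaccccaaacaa
Msp300, chr2L:5196842-5196992, plus strand: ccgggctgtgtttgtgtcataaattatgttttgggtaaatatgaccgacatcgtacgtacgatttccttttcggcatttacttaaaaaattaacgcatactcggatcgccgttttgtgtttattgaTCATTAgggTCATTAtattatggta
kirre, chrX:2744152-2744302, plus strand: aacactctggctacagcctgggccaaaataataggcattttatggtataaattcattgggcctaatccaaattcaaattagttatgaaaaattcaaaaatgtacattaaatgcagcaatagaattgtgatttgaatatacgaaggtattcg
kirre, chrX:2787418-2787568, plus strand: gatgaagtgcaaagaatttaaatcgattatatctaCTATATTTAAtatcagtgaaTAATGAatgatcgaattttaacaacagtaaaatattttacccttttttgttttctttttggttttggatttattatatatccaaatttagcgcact
how, chr3R:22049219-22049369, plus strand: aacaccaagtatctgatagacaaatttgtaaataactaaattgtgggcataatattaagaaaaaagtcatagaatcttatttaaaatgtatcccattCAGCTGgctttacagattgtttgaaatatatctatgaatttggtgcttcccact
mbc, chr3R:23783161-23783311, plus strand: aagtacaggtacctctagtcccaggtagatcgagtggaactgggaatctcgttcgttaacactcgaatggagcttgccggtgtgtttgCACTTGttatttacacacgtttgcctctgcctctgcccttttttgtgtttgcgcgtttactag

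The signal is the authors' own value of peak strength. Its scale is not stated and differs between the lists, so that values of replicates 1 and 2 are ranked within their own list of 30000 candidates and not set against each other. A candidate is any entry of these lists, which hold peaks together with background. The weakest thresholded peak had a pooled signal of 121 and the strongest 2915.

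Regulators and fusion genes held 14 of the 19 summits, of which 6 lay in kirre. This gene alone covers 394 kb of the 1134 kb spanned by the 36 genes. The count of 14 is not adjusted for length. Median spans were 37.1 kb for regulators and 56.6 kb for fusion genes, against 11.9 kb for all 36 genes. Of the 14 summits, 3 lay at TSSs of other genes and not of their own. A further 1, at mbc, lay 20 bp from the TSS of Nup98-96 and 124 bp from that of mbc. Among the 3 regulators, Mef2 and how had at least 1 summit, and among the 5 fusion genes kirre, rols and mbc did. Of 6 genes of the Z disc and its anchorage, Msp300 and Zasp52 were marked, and of 4 giant or M line proteins only sls. None of the 4 thick filament and none of the 14 thin filament genes held a thresholded summit. If these genes are taken as independent, finding 0 among 18 leaves room for a share of up to 16.7% (3 of 18). This is a rough 95% upper limit and not a test, as the group was split off with earlier results known. With the 2790 strongest candidates of replicate 1 in place of the thresholded set, 1 thin filament gene, Act87E, had one, where 16.9% of all protein-coding genes did.

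Over all protein-coding genes, 16.7% held a thresholded summit at a TSS or in the span and 12.7% at a TSS. For the muscle genes the shares were 22.2% (8 of 36) and 13.9% (5 of 36). Muscle genes are long, with a median span of 11.9 kb against 2.17 kb for all protein-coding genes. Each gene was therefore set beside all protein-coding genes of 0.5 to 2 times its span. Averaged over the 36 genes, 27.5% of such genes held a thresholded summit, and 16.6% held one at a TSS. Both shares of the muscle genes lay below these averages. The 18 filament genes had 0% beside an average of 20.3% for genes of their span, and the other 18 had 44.4% beside 34.6%. Taken by role, 2 of 3 regulators were marked (66.7% beside 33.7% for genes of their span) and 3 of 5 fusion genes (60.0% beside 33.9%). The fusion average is lowered by kirre, which had only 8 genes of similar span, 12.5% of them marked. For every other fusion gene this share was between 36.3% and 41.2%. The value of kirre also enters the averages of 27.5% and 34.6%. For the Z disc and its anchorage the share was 33.3% beside 32.2%, and for giant and M line proteins 25% beside 40.0%. These shares are descriptions, and the split into roles was made with earlier results of these data known.

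By length class, none of the 14 muscle genes under 5 kb held a thresholded summit, where 11.5% of all protein-coding genes did. Of 8 genes of 5 to 20 kb, mbc held summits (28.7% of all genes). Of 7 genes of 20 to 50 kb, Mef2 and how did (39.8% of all genes). Of 7 genes of 50 kb or more, 5 did, namely sls, Zasp52, Msp300, kirre and rols (44.3% of all genes). The shortest marked gene was mbc at 19.9 kb, and the median span was 55.5 kb for the 8 marked genes and 4.99 kb for the 28 others. These longest 7 genes held 12 summits, or 1.71 per gene against 1.01 per gene in the whole class, and 6 of the 12 belonged to kirre. In the 3 shorter classes the muscle genes had fewer summits per gene than the whole class, with 0 against 0.121, 0.25 against 0.403 and 0.714 against 0.742. Over the spans of all 36 genes there were 1.5 thresholded summits per 100 kb, beside 2.08 over the arms.

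**Figure D1:**
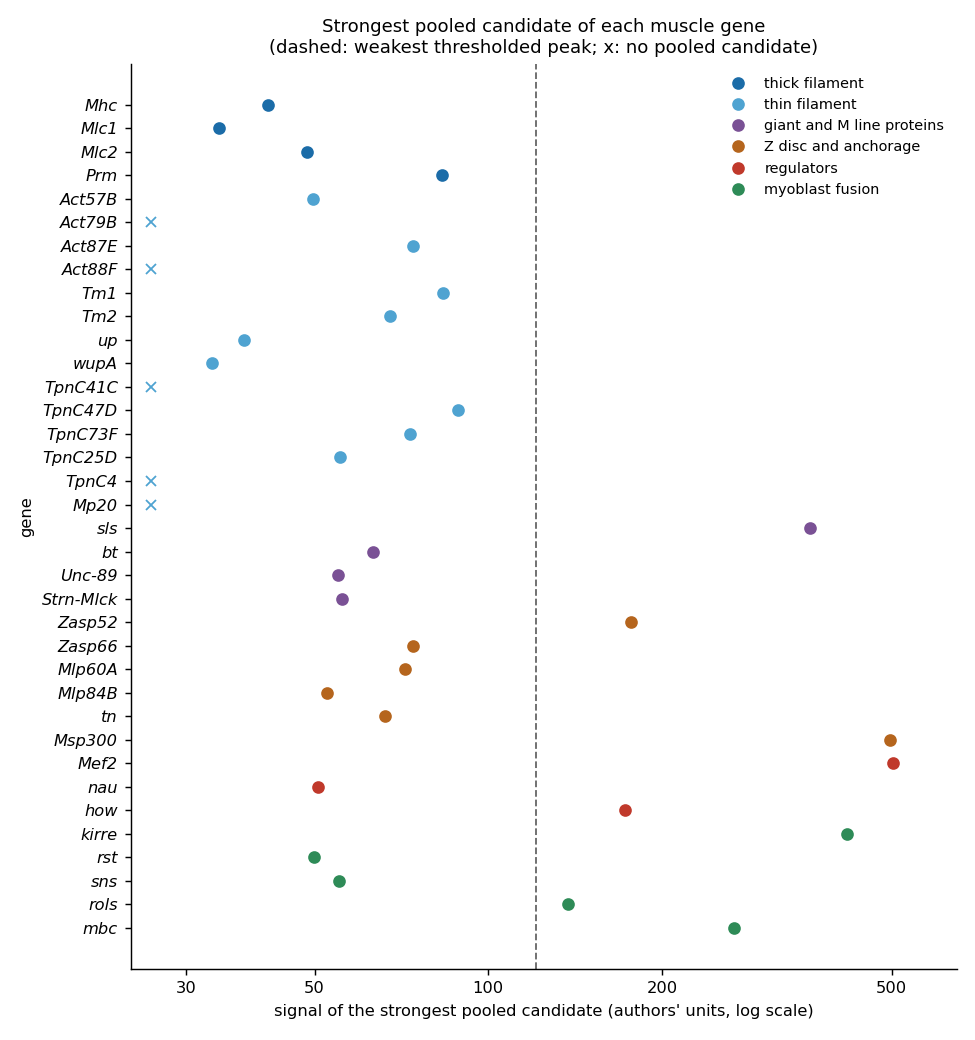
Signal of the strongest pooled candidate of each of the 36 muscle genes on a log scale, coloured by role, with the weakest thresholded peak (121) as a dashed line and crosses for the 5 genes without a pooled candidate. The 8 marked genes lie to the right of the line, from rols at 137 to Mef2 at 503, and all 18 filament genes lie to its left or have a cross.

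Mef2 (FBgn0011656, 2R, 9913496 to 9958858, minus strand), which encodes the MADS-box factor that activates sarcomere genes, held the strongest muscle gene summit. It lay in an intron at 9949205, 4441 bp from the nearest TSS of the gene, with a signal of 503 (rank 223 of 2790). Replicate 1 had a candidate there with a signal of 144 (rank 261) and replicate 2 one with 356 (rank 225), so both samples placed it near the top of their lists. The gene held 3 further thresholded summits. The one at 9942966 lay in an untranslated exon 1798 bp from a TSS, with a signal of 180, the one at 9955552 in an intron with 158, and the one at 9958734 in an untranslated exon 124 bp from a TSS with 133. The summit beside that TSS had a replicate 2 candidate (signal 116, rank 1756) and no replicate 1 candidate within 200 bp. A further candidate at 9949719 had a signal of 118 and fell just outside the thresholded set. In all, Mef2 held 30 pooled candidates, 19 in replicate 1 and 35 in replicate 2. Of 793 protein-coding genes of similar span, 95.3% held fewer thresholded summits and 95.3% fewer pooled candidates.

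The gene how (FBgn0264491, 3R, 22042191 to 22079321), which encodes an RNA-binding protein needed in muscle and tendon cells, had 1 intronic summit at 22049294, 7103 bp from its TSS. Its pooled signal was 173 (rank 1548). Replicate 2 ranked this site at 1372 (signal 133) and replicate 1 at 3039 (signal 39.0), outside its 2790 strongest. The third regulator, nau, is the fly counterpart of the vertebrate MyoD family and held no thresholded summit. Its strongest pooled candidate had a signal of 50.6 and rank 12134.

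Among the fusion genes, kirre (FBgn0028369, X, 2740384 to 3134532), also known as dumbfounded, held 6 thresholded summits, all intronic and none within 500 bp of its own TSSs. The strongest, at 2744227, had a signal of 418 (rank 315), with 69.2 in replicate 1 (rank 1073) and 345 in replicate 2 (rank 244). It lay 151 bp from a TSS of Syx4, a syntaxin gene that overlaps this end of kirre. The second, at 2743303 with a signal of 260, lay 345 bp from a TSS of Syx4. The summit at 2919938 (signal 195) lay 168 bp from a TSS of CG3588, 1 of the 21 protein-coding genes nested within the span of kirre. Thus 3 of the 6 kirre summits lay at promoters of other genes. The remaining 3, at 2786779 (signal 241), 2787493 (signal 188) and 3097205 (signal 190), lay 1829 to 2543 bp from the nearest annotated TSS. The first pair of these are 714 bp apart and nearest to a TSS of CG32795, also nested within kirre. They lay 45974 and 46688 bp from a TSS of kirre itself. Only the summit at 3097205 had a TSS of kirre as the nearest.

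The count of 6 goes with the length of kirre, which spans 394 kb. Its density was 1.52 thresholded summits per 100 kb, below that of the arms. Its 81 pooled candidates amount to 20.6 per 100 kb beside 22.4 over the arms. Only 8 protein-coding genes had 0.5 to 2 times its span, too few to serve as a background for kirre, and 12.5% of them held a thresholded summit. All 6 summits had candidates in both replicates, and each ranked within the 2790 strongest of both.

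The gene mbc (FBgn0015513, 3R, 23781765 to 23801634) encodes a DOCK-family activator of the GTPase Rac. Its stronger summit lay in an intron at 23783236, 1471 bp from the TSS, with a signal of 267 (rank 726). There the replicate 1 candidate had a signal of 56.8 (rank 1559) and the replicate 2 candidate 215 (rank 596). The other lay outside the span at 23781641, 124 bp from the TSS of mbc. A nuclear pore gene transcribed the other way, Nup98-96, starts only 20 bp from this summit, whose signal was 192. This promoter site ranked 2806 in replicate 1 and 1086 in replicate 2. Of 1523 genes of similar span, 87.1% held fewer thresholded summits than the 2 of mbc.

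The scaffold gene rols (FBgn0041096, 3L, 12008225 to 12064859) had 1 summit at 12056826, in an intron and 352 bp from its downstream TSS, with a signal of 137 (rank 2279). It was the weakest of the strongest summits of the 8 marked genes. Its replicate ranks were 2175 (signal 46.9) and 2841 (signal 87.3), so that it fell just outside the 2790 strongest of replicate 2. The receptor genes rst and sns held no thresholded summit, with strongest pooled signals of 49.8 and 55.1. The span of rst lies within that of kirre, and all 7 pooled candidates of rst were therefore counted for kirre as well. No kirre summit of the thresholded set lay inside rst.

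Anchorage genes carried 4 summits. Msp300 (FBgn0261836, 2L, 5100877 to 5207002) encodes a nesprin, which ties nuclei to the cytoskeleton, and held 3, all intronic. The strongest, at 5108171, lay 341 bp from an internal TSS of the gene, with a signal of 496 (rank 227). Replicate 1 ranked it 359 (signal 122) and replicate 2 ranked it 243 (signal 345). The summit at 5145792 had a pooled signal of 211 and lay 594 bp from a TSS. It was the summit on which the replicates differed most in rank among those with 2 candidates, with 310 in replicate 1 (signal 131) and 3524 in replicate 2 (signal 77.5), where the nearest candidate summit was 178 bp away. The summit at 5196917, near the 3′ end of the gene, had a signal of 205, with ranks of 679 and 1894. Of 273 genes of similar span, 85.7% held fewer than 3 thresholded summits.

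Zasp52 (FBgn0265991, 2R, 15762565 to 15817004), which encodes a PDZ and LIM domain protein of the Z disc, had 1 intronic summit at 15784959, 8897 bp from a TSS, with a signal of 176 (rank 1487). The replicates ranked it 1346 (signal 61.9) and 1854 (signal 113). A candidate 198 bp from a Zasp52 TSS, at 15817202, had a signal of 111 and was just outside the thresholded set. Zasp66, a second member of that family, held no thresholded summit (strongest pooled signal 74.1). Its best candidate ranked 2444 in replicate 1, inside the strongest 2790, and had no replicate 2 candidate within 200 bp. The LIM domain genes Mlp60A and Mlp84B and the ubiquitin ligase gene tn had strongest pooled signals of 71.8, 52.7 and 66.2.

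Of the giant proteins, the titin-like gene sls (FBgn0086906, 3L, 2039681 to 2115611) had 1 summit at 2115865, 254 bp upstream of its single annotated TSS, with a signal of 361 (rank 425). Both replicates placed it near the top, with ranks of 518 (signal 102) and 421 (signal 254). The rest of this 75.9 kb gene was poor in candidates. It held 4 in the pooled list, and 12.0% of the 468 genes of similar span held fewer. Projectin (bt), obscurin (Unc-89) and Strn-Mlck had 7, 4 and 3 pooled candidates, with strongest signals of 63.0, 54.9 and 55.8.

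**Figure D2:**
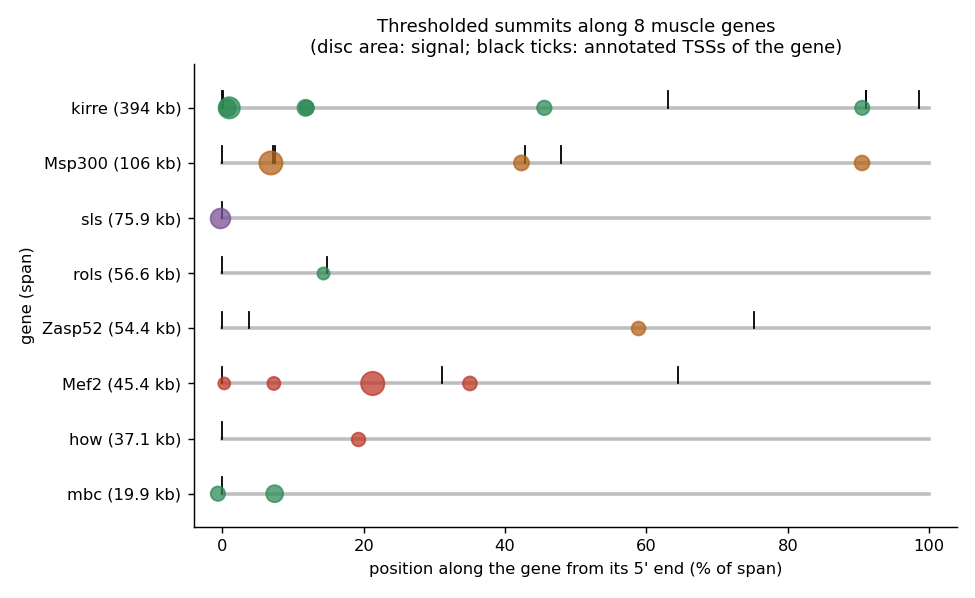
Thresholded summits along the 8 marked genes, as a percentage of the span from the 5′ end; disc area is proportional to signal and black ticks are annotated TSSs of the gene. The sls summit sits at the gene start, the strongest Mef2 summit at 21.3% of its span, and the 6 kirre summits between 0.741% and 90.5%.

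Thick filament genes held candidates far below the thresholded set. Their strongest pooled signals were 41.5 for the myosin heavy chain gene Mhc, 34.1 and 48.5 for the light chain genes Mlc1 and Mlc2, and 83.2 for paramyosin (Prm). Mlc1 and Mlc2 had no candidate in replicate 1. Mhc, whose span is 22.2 kb, held 3 pooled candidates, and the median of genes of similar span was 5.

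Thin filament genes divided into those with a pooled candidate below the thresholded set and those with no pooled candidate. Among the actins, Act87E had a strongest pooled signal of 74.0 and Act57B 49.7, while Act79B and Act88F had no candidate in any of the lists. The Act87E candidate lay 438 bp from a TSS and ranked 2617 in replicate 1 but 16299 in replicate 2. Among the calcium-binding troponin C genes, TpnC47D (88.5), TpnC73F (73.1) and TpnC25D (55.3) had a pooled candidate, and TpnC4 and TpnC41C had none in any list. TpnC47D had the strongest candidate of all 28 unmarked genes, at rank 4665. The calponin-like gene Mp20 had no pooled candidate and 1 in each replicate. Act88F and TpnC4 encode isoforms of the adult flight muscle, and Act57B an actin of larval body wall muscle.

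The genes for troponin T (up) and troponin I (wupA) had 1 pooled candidate each, with signals of 37.8 and 33.2. The tropomyosin genes lie next to each other on 3R and were richer in candidates. Tm1 held 20 pooled candidates, 15 of replicate 1 and 16 of replicate 2, and 93.1% of 1120 genes of similar span held fewer pooled candidates. Its strongest signal was nevertheless 83.5, below the thresholded set, and that of Tm2 was 67.7. A large number of candidates was therefore not always accompanied by a thresholded summit.

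Across the 36 genes, 31 had a pooled candidate at a TSS or in the span, where 57% of all protein-coding genes did, and 23 had one at a TSS (47.9% of all). For genes of similar span the averages were above those of all protein-coding genes, at 76.7%, and at 60.6% at a TSS. The muscle genes had 86.1% and 63.9%. Both averages are lowered by kirre, whose 8 genes of similar span had a median of 0 pooled candidates. Over the 31 genes the median of the strongest signal was 67.7, and over the 7943 protein-coding genes with a candidate it was 73.4. Of the 28 unmarked genes, 23 had a pooled candidate, and their strongest signals ran from 33.2 to 88.5 with a median of 55.3. No muscle gene had its strongest candidate between 88.5 and 137.

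**Figure D3:**
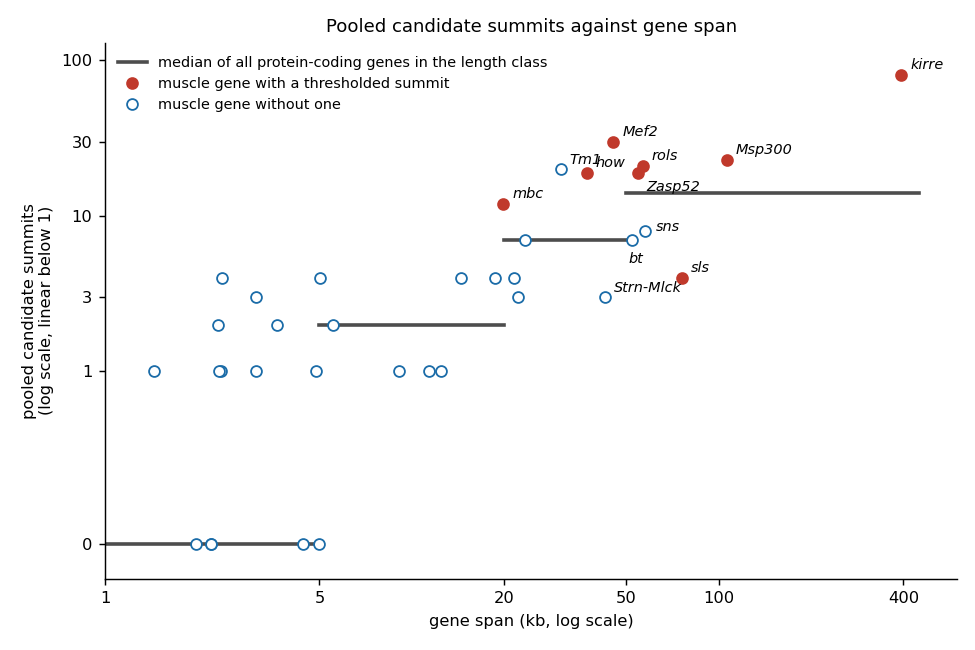
Pooled candidate summits against gene span for the 36 muscle genes, on log axes, with the median of all protein-coding genes in each of 4 length classes as a grey bar (0, 2, 7 and 14). Genes with a thresholded summit are filled; all are at least 19.9 kb long, and Tm1 is an unfilled gene with 20 candidates.

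By position in the gene, 15 of the 19 muscle gene summits were intronic (78.9%), 3 of them the kirre summits at promoters of Syx4 and CG3588, 2 lay in untranslated exons of Mef2, and 2, those of sls and mbc, lay upstream of the span. The 5 within 500 bp of a TSS of the gene itself made up 26.3% (95% exact binomial interval 9.15 to 51.2). Over all protein-coding genes, counting each summit once for every gene it was assigned to, 47.5% of 3099 assignments were intronic and 61.3% lay at a TSS of that gene. In protein-coding genes of at least 20 kb, the range of all marked muscle genes but mbc, 83.2% of 835 assignments were intronic and 26.5% lay at a TSS of that gene. Both shares of the muscle gene summits were close to those of such long genes. With the 3 kirre summits at promoters of other genes the number at a TSS of any gene was 8 (42.1%, interval 20.3 to 66.5), beside 52.8% of all 2790 summits. The intervals cover counting of sites only, and sites of 1 gene are not independent.

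Signals of the 19 summits were close to those of the whole set, with a median of 195 (quartiles 178 and 263) against 183. The best rank was 223 of 2790, and 13 of 19 lay in the stronger 50% of peaks. Those just inside the threshold were the Mef2 summit at 133 and the rols summit at 137.

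Replicate support was high. Of the 19 summits, 18 had a replicate 1 candidate within 200 bp and 19 a replicate 2 candidate, and over all thresholded summits these shares were 95.1% and 99.5%. Within the 2790 strongest of each replicate, 16 and 17 of the 19 were found, and 14 in both. For all thresholded summits the corresponding shares were 71.7%, 86.7% and 60.0%. The thresholded set holds the strongest pooled candidates, to which both replicates contributed, so this support is not independent of how the set was made.

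**Figure D4:**
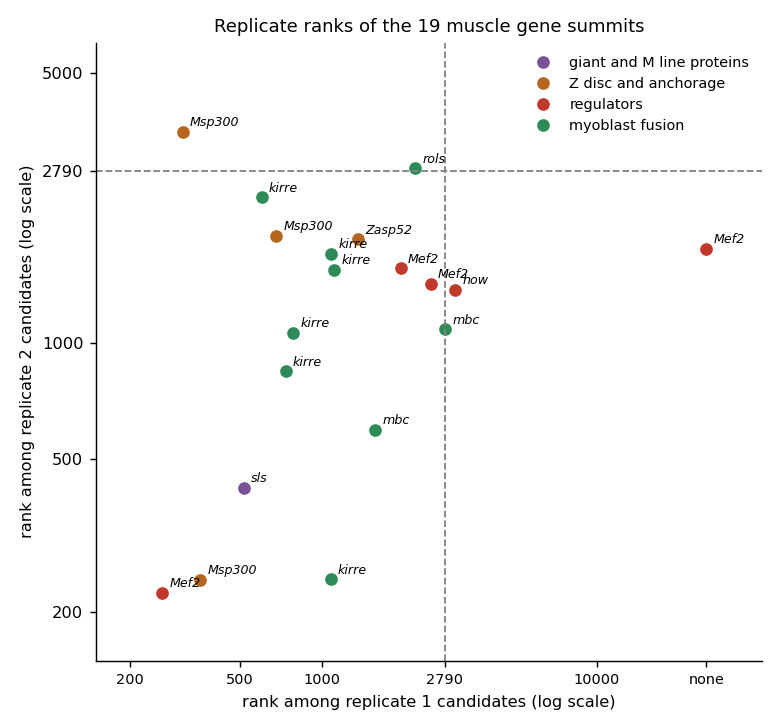
Rank of each of the 19 muscle gene summits among the candidates of replicate 1 (x axis) and replicate 2 (y axis), on log scales, with dashed lines at rank 2790. The strongest Mef2, Msp300 and sls summits are at the lower left, 1 Msp300 summit ranks 310 and 3524, and 1 Mef2 summit has no replicate 1 candidate.

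Within 100 bp of the summit, mean GC content was 37.0% ± 6.51 (SD across 19 summits), close to the 38.5% ± 7.35 (SD across 2790 summits) of the whole set. It ran from 23.9% at the middle Msp300 summit to 48.3% at the Mef2 summit at 9942966. Sequences were searched on both strands in these windows, and a match is a description, not a site. The MEF2 site, a 10 bp AT-rich element to which Mef2 binds, matched at 3 of 19 summits (15.8%) and at 9.46% of all. Those 3 were the summits of Msp300 at 5108171 and 5145792 and of kirre at 2787493. The E-box CANNTG, the element of bHLH factors such as nau, matched at 10 (52.6%) beside 62.9% of all summits.

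The homeodomain core TAATTA occurred at 3 summits (15.8%, all summits 14.6%), and so did TAATGA (15.8%, all summits 12.7%). These were 6 different summits, so that 31.6% held 1 of the cores, beside 25.2% of all summits. The 2 TAATGA matches in the second Msp300 sequence above are 3 bp apart. TATAAA, the TATA box, which can overlap the MEF2 site, occurred at 6 (31.6%, all summits 29.6%). The GAGA factor repeat GAGAG was found at none of the 19 summits, where 25.5% of all had it. If the summits were independent, finding 0 among 19 would leave room for a share of up to 15.8% (3 of 19), a rough 95% upper limit. They lie in 8 genes, this was 1 of 7 sequences searched, and the difference was not tested. The Dref site TATCGATA was also found at none (3.26% of all). With 19 summits in 8 genes, 1 summit amounts to 5.26% of them.

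Other genes of muscle development and contraction were taken from 5 lists of 70 names, of which 67 matched a gene outside the 36. Of these 67, 18 held a thresholded summit (26.9%), beside an average of 28.5% for genes of their span. At a TSS 10 held one (14.9%, beside 16.8%). The largest number was in integrin attachment and the dystrophin complex, with 7 of 17 genes marked (41.2%, beside 29.1% for genes of their span) and 5 at a TSS (29.4%, beside 17.0%). They included dystroglycan (Dg, signal 219), dystrophin (Dys, 197), vinculin (Vinc, 176) and the focal adhesion gene stck (146). Dystrophin also held a stronger summit away from its TSSs, with a signal of 640.

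Of 12 genes of the fusion cytoskeleton, 3 were marked (25%, beside 22.9% for genes of their span), with promoter summits at the actin nucleation genes WASp (signal 274, 92 bp from the TSS) and Vrp1 (151, 72 bp). Of 10 genes listed as further sarcomere genes, 3 were marked (30%, beside 29.5%). Only paxillin (Pax, 544) was marked at a TSS, and it held 5 of the 8 summits of this list. Paxillin is a focal adhesion protein, so this is not a promoter summit of a sarcomere gene. The thin filament capping gene tmod had 2 summits away from its TSSs, the stronger with a signal of 415. Of 17 muscle specification factors, 3 were marked (17.6%, beside 25.4%), and only the heart and visceral muscle gene tin at a TSS (146). Of 11 genes of excitation and calcium handling, 2 were marked (18.2%, beside 37.5%), with arginine kinase (Argk1, 225) at a TSS.

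Among 6 non-muscle counterparts of the sarcomere proteins, a further list, 2 were marked (33.3%, beside 22.4% for genes of their span). Both had the summit at a TSS (33.3%, beside 15.6%). They were sqh, the regulatory light chain of non-muscle myosin (signal 261, 52 bp from the TSS), and the cytoplasmic actin gene Act5C (202, 477 bp from its TSS and nearer to that of a non-coding gene). The other cytoplasmic actin gene Act42A had no thresholded summit (strongest pooled signal 52.5), nor did zip (89.1), Mlc-c (52.5) and Cam (114). The muscle genes Mlc2 and the 4 muscle actins held none either. The difference between these few genes was not tested.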

How the data were processed

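ChIP-seq peaks of 1 group of 2 replicates were analysed from 4 deposited lists on dm6, per the labels. These are 1 candidate list per replicate, 1 of both pooled, each of 30000 entries, and the optimal IDR thresholded set of 2790 peaks. IDR ranks peaks by reproducibility. Which tools aligned the reads and called the peaks, and the IDR cutoff, is not given in the sources used here. Read depth is unknown. The signal is the authors' value per peak, deposited without a stated scale. The summit is the peak start plus another column that the authors deposited, an offset in bp.

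Genes came from Ensembl release 115 (BDGP6.54) without transposable elements, and sequence from the NCBI Release 6 assembly. Arm names matched dm6 and no peak ran beyond an arm. Names were matched by symbol, then by a single RefSeq synonym. Counts, medians and shares were set beside all protein-coding genes or all summits, with no test. Summits within 200 bp counted as shared. All 36 genes are accounted for, and every gene with a thresholded summit is described. Of the other 6 lists, 5 of muscle genes and 1 of non-muscle counterparts, up to 4 genes per list with the strongest TSS summit are named, while tmod and the other summit of Dys were chosen after seeing the values. The members and lists were chosen with earlier results of these data known. Assignment and sequence search were tested on simulated data. Alternatives were other promoter windows, a stricter set, each replicate alone, interval overlap, other definitions of a shared candidate and shorter sequence windows. The software was Python 3.11.15 with matplotlib 3.10.9, numpy 2.4.6, scipy 1.17.1 and pandas 2.3.3.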

Additional observations from a re-analysis of the deposited data

How the results depend on the processing

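The 7 results followed had 48 alternative values, some of which could not move because a summit inside the span counts whichever TSS is used. Of the 48, 44 kept within the range set for a like value. That range was 1.5 times for counts, the SD for the median signal and the wide exact interval (9.15 to 51.2) for the share of summits at an own TSS. That share of 26.3% fell to 11.1% with a promoter window of 250 bp and to 15.8% with the 5′ end of the span as the only TSS. Muscle genes with a thresholded summit at a TSS went from 5 to 2 with a promoter window of 250 bp (10.2% of all protein-coding genes), to 3 with the 5′ end of the span as the only TSS (11%), and to 3 in the stronger 50% of peaks (7.16%). In that stricter set the genes with a summit at a TSS or in the span numbered 5 (9.67% of all), having lost Zasp52, how and rols. With the window of 250 bp sls was lost. Without replicate 1 there were 7 genes, 5 of them at a TSS, 20 summits with 25% at a TSS, and 31 genes with a candidate, and rols was lost. Without replicate 2 there were 9 genes, 4 of them at a TSS, 21 summits with 19.0% at a TSS, and 29 genes with a candidate; how was lost, and Act87E and Zasp66 gained a summit. Both times 7 of the 8 genes were kept. The median signal has no value there because the scale differs between lists. Within 50 bp of the summit, where fewer matches are found in all summits too, TAATTA matched at 0 of 19 (7.88% of all summits), TAATGA at 1 (6.59%), the E-box at 5 (38.9%) and the MEF2 site at 2 (5.23%). TATAAA still matched at 6 (31.6%), beside 17.2% of all summits. No paired analysis was possible because there is 1 group. Peak lists without read counts set no limit on depth, and a gene without a candidate is not shown to lack binding.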
